A study of Mus musculus with 10 samples.

Results

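The transcripts of 10 GTPases are described, those of 5 guanylate-binding proteins (*Gbp2*, *Gbp3*, *Gbp4*, *Gbp5* and *Gbp7*) and 5 immunity-related GTPases (*Irgm1*, *Irgm2*, *Igtp*, *Iigp1* and *Tgtp2*). They were chosen by symbol as GTPases that interferon-γ (IFN-γ) induces, and each of the 10 symbols was found on 1 of the 55401 gene rows. All 10 passed the filter on low counts. They were measured by bulk RNA sequencing in 10 subcutaneous tumors of B16F10, a mouse melanoma cell line, of which 5 arose from knockout (KO) cells that lack *Mir25* and 5 from control cells given a non-targeting guide (NTC). *Mir25* encodes miR-25. Both kinds of cell were made with CRISPR-Cas9, the methods describe antibiotic-selected lentiCRISPR v2 populations as well as single-cell clones, and the labels do not say which were injected. The hosts were female C57BL/6J mice, 9 to 12 weeks old per the study's methods, which keep their own *Mir25* in every host cell. The labels give 50000 tumor cells per mouse, which is not the number in the methods. All mice, controls included, received the combination therapy. It consisted of GVAX, irradiated B16 cells that secrete GM-CSF (1000000 cells on days 1 and 4), and anti-PD-1 antibody at 10 mg/kg on days 6, 9 and 12. Tumors are labelled day 15.

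Guanylate-binding proteins (GBPs) and immunity-related GTPases (IRGs) are GTPases that nearly every cell type makes after contact with IFN-γ. They assemble on the vacuoles of intracellular parasites and bacteria and on bacterial surfaces, and help to break them open and to start inflammasome signaling. IFN-γ is made mainly by T cells and NK cells. It binds a receptor of *Ifngr1* and *Ifngr2*, whose kinases are *Jak1* and *Jak2*. The genes that respond often carry a gamma-activated sequence (GAS), and the transcription factor *Irf1*, itself induced by IFN-γ, binds interferon response elements. In a tumor both the melanoma cells and the host cells can respond, and bulk counts do not separate them.

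The promoters were searched for the letters of both elements. RefSeq promoters on GRCm38.p6, 250 bases before to 50 bases after each start, were listed for 8 of the 10 members, not for *Gbp4* and *Iigp1*. Both strands were searched for the GAS letters TTCNNNGAA and the interferon response letters GAAANNGAA. All 8 had the interferon response letters, against 8.56% of 32851 promoters of this length. Of the 8, 5 (*Gbp5*, *Gbp7*, *Irgm2*, *Igtp* and *Tgtp2*) also had the GAS letters, which 8.30% of promoters had, and 1.07% of promoters had both. *Gbp3* is listed with 2 starts, and only the first had a match. The last 120 bases before the start are printed for 7 members whose levels are compared below, 5′ to 3′ on the strand of the gene, with matches to either motif in capitals. A capital run that begins with TTC and ends with TTC is the interferon response motif read on the other strand.
Gbp2, chr3:142620543-142620662, plus strand: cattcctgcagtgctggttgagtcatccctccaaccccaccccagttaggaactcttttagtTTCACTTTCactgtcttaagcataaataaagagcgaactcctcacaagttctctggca
Gbp5, chr3:142496814-142496933, plus strand: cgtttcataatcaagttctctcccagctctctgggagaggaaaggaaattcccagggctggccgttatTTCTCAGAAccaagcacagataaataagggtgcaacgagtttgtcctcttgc
Gbp7, chr3:142530216-142530335, plus strand: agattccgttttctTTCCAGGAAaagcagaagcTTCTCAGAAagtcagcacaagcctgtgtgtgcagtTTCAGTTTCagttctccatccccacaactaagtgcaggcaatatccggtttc
Irgm1, chr11:48871421-48871540, minus strand: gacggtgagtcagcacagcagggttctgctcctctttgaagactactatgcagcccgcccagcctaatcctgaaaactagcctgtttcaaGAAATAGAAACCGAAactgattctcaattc
Irgm2, chr11:58214857-58214976, plus strand: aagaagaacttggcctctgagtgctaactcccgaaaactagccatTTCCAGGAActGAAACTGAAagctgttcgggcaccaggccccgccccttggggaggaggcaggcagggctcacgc
Igtp, chr11:58199436-58199555, plus strand: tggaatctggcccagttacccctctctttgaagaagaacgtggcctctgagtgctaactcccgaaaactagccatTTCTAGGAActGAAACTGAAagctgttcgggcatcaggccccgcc
Tgtp2, chr11:49064213-49064332, minus strand: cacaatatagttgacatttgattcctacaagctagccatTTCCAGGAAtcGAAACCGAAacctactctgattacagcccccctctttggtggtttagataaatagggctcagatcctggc
In *Irgm2*, *Igtp* and *Tgtp2* the GAS letters were followed, 2 bases later, by the interferon response letters. The *Igtp* match lay at bases -45 to -37 and -34 to -26 from the start, and the *Igtp* and *Irgm2* windows shared an identical run of 38 bases that ended within the GAS letters. *Gbp7* had the GAS letters at -106 to -98 and at -87 to -79, upstream of its interferon response match at -52 to -44. In *Gbp2* the interferon response match at -58 to -50 stood alone. *Gbp5* also had a GAS match at -245 to -237 and an interferon response match at -164 to -156, beyond the printed window. A match shows that the letters are present and not that a factor bound there.

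In GENCODE M21 on GRCm38 the members lie on 4 chromosomes. *Gbp5* (chr3:142493978-142522344), *Gbp7* (chr3:142530342-142550149), *Gbp3* (chr3:142560026-142573209) and *Gbp2* (chr3:142620602-142638008) follow each other on the plus strand of chromosome 3. *Gbp4* (chr5:105115767-105139586) is in the GBP cluster of chromosome 5, minus strand. *Irgm1* (chr11:48861968-48871683) and *Tgtp2* (chr11:49057194-49064206) are on the minus strand of chromosome 11. *Igtp* (chr11:58199556-58207591) and *Irgm2* (chr11:58199618-58222782) overlap on its plus strand, and *Iigp1* (chr18:60376027-60392634) is on chromosome 18. All are annotated as protein coding.

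Some of these genes are hard to tell apart by short reads. The coding sequence of *Tgtp2* is 99.7% identical to that of its neighbor *Tgtp1*, and 86.6% of its 50-base stretches and 76.8% of its 100-base stretches also occur in a transcript of another gene. Reads with more than 1 alignment were set apart in the deposited files, 12.8 to 20.4% of reads, so the reads of *Tgtp2* were counted in part only and its level is uncertain. *Igtp* shares 8.01% of its exon bases with *Irgm2*, which shares 4.39% of its own with *Igtp*, and reads assigned to 2 genes were likewise left out. In *Gbp7*, 11.3% of exon bases are shared with *Gm43802*. In the other 6 members at most 0.954% are shared.

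Depth on genes was 23243707 to 27006075 reads in KO tumors and 11896643 to 28682130 in NTC tumors. NTC replicate 1 stood apart. It had the fewest reads on genes, 42.95% of its reads on no annotated gene against 17.47 to 28.18% in the other 9 tumors, 33193 genes with a count against 22192 to 25435, and a TMM factor of 0.628. The tests of KO against NTC are therefore also given over the 9 tumors without it. The *Mir25* row held 0 reads in every library, NTC included, so these counts cannot check the knockout. Nothing in the labels says that the 5 tumors of a group came from separate experiments, and p-values measure the spread between these tumors. Levels are given as CPM (counts relative to 1000000 reads on genes) scaled by TMM factors. In whole tumors fewer cells of a type and less RNA per cell cannot be told apart.

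Per length, *Gbp2*, whose protein coats parasite vacuoles, had the highest level at 536 ± 157 CPM per kilobase of exon (SD, n = 10 tumors). *Igtp*, a regulatory IRG also called Irgm3, followed at 368 ± 80.2, and *Iigp1*, an effector IRG that loads onto vacuole membranes, at 169 ± 31.0. These 3 held the same places in all 10 tumors with exon-union length. With the longest transcript as length *Iigp1* moved to 314 CPM per kilobase and exceeded *Igtp* in NTC replicate 1, with 18.9% against 18.2% of the summed level, and *Gbp4* moved to 153, above *Gbp7*. *Gbp7* (99.1 ± 19.3), *Gbp4* (92.9 ± 15.3), *Irgm2* (88.0 ± 18.5) and *Gbp3* (78.4 ± 22.5) came next, and neighbors in that stretch changed places in some tumors: *Gbp7* was above *Gbp4* in 7, *Gbp4* above *Irgm2* in 8 and *Irgm2* above *Gbp3* in 7 of 10. *Irgm1* (52.9 ± 9.06), *Gbp5* (18.2 ± 7.52) and *Tgtp2* (9.52 ± 2.15) were lowest, and with the longest transcript *Irgm1* stood at 80.2 and *Gbp5* at 32.2. The place of *Tgtp2* is uncertain, since its reads were counted in part only and its full exon length was used.

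As a share of the summed per-length level, *Gbp2* took 37.1 ± 3.75% in KO tumors and 32.9 ± 3.27% in NTC tumors (SD, n = 5 each). *Igtp* took 23.0 ± 1.83% and 26.0 ± 2.67%. A share within a tumor does not depend on the library size. In KO tumors *Gbp3* held 5.31, 6.26, 5.44, 5.23 and 6.10%, in the order of replicates 1 to 5, and in NTC tumors 5.32, 4.43, 4.96, 4.09 and 4.27%. Only NTC replicate 1 reached the KO range. *Tgtp2* held 0.511, 0.613, 0.647, 0.569 and 0.501% in KO tumors and 0.624, 0.727, 0.635, 0.779 and 0.748% in NTC tumors, so the ranges met at KO replicate 3. The shares of *Gbp2*, *Gbp3* and *Gbp5* had higher means in KO tumors, those of *Gbp7*, *Irgm1*, *Irgm2*, *Igtp*, *Iigp1* and *Tgtp2* higher means in NTC tumors, and *Gbp4* held 6.22 ± 0.764% and 6.24 ± 0.409%. Shares add up to a whole, so a higher share of one member lowers those of the others, and these shares were not tested. The share of *Tgtp2* rests on the part of its reads that was counted.

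**Figure D1:**
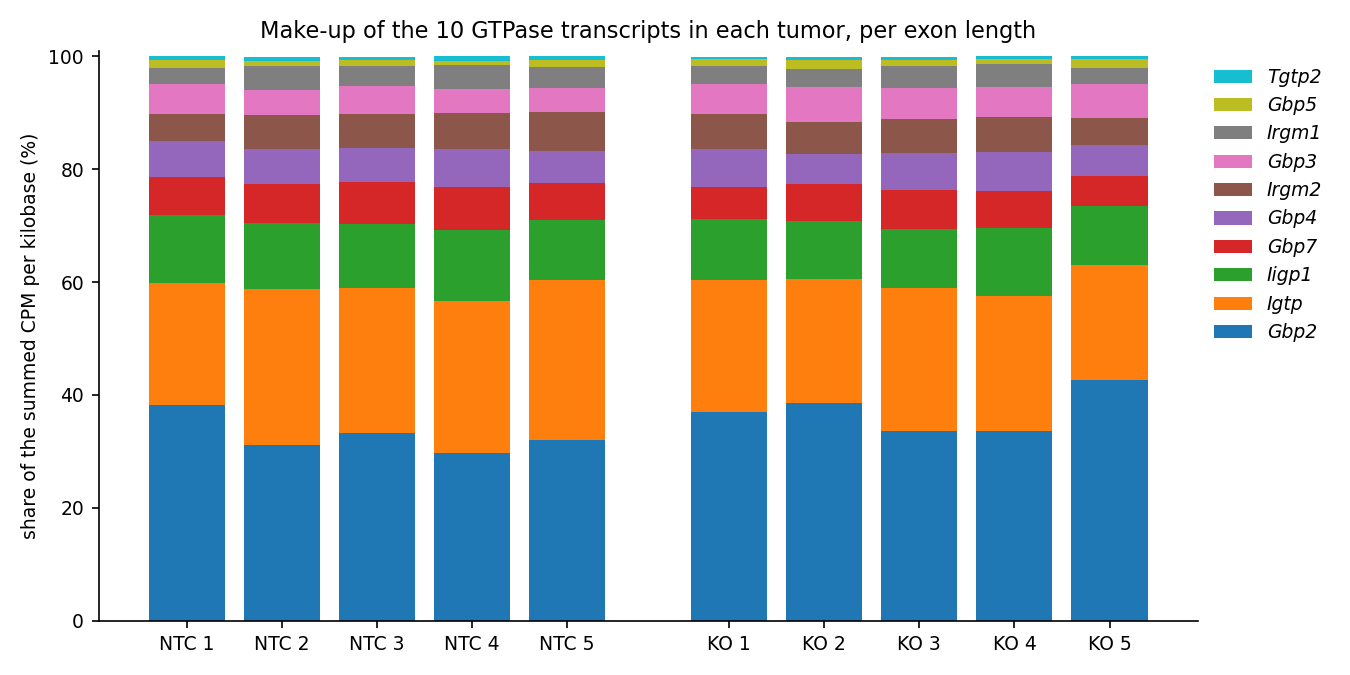
Share (%) of each of the 10 GTPase transcripts in their summed CPM per kilobase of exon, 1 bar per tumor, 5 NTC tumors on the left and 5 KO tumors on the right. Gbp2 and Igtp are the 2 largest parts of every bar, and the Gbp2 share runs from 29.7% in NTC replicate 4 to 42.6% in KO replicate 5.

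The main comparison asked whether the GTPases differ between treated tumors with and without *Mir25* in the tumor cells. No member differed by the threshold, and in each of the 10 the KO and NTC values overlapped. Over 10 tumors without a covariate *Gbp2*, *Gbp3* and *Gbp5* had log2 fold changes above 0, and the other 7, all 5 IRGs among them, had values below 0. With the leukocyte score described below as a covariate all 10 were below 0, with *Gbp2* at -0.29, *Gbp3* at -0.15 and *Gbp5* at -0.40. The value of *Gbp2* fell below 0 without KO replicate 5 (-0.07) or NTC replicate 4 (-0.02), and that of *Gbp5* reached 0 without KO replicate 5. *Tgtp2* was the member farthest from 0.

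*Gbp2* stood at 1426, 1530, 1055, 889 and 2119 CPM in KO replicates 1 to 5. In NTC replicates 1 to 5 it stood at 1599, 1142, 1479, 767 and 1468 CPM. KO replicate 5 was the highest and NTC replicate 4 the lowest tumor, with the others mixed between them. Its KO to NTC fold was 1.09 (95% interval 0.728 to 1.62), and adjusted p = 0.912 by edgeR's quasi-likelihood test. *Gbp3*, encoded nearby, had 265, 323, 221, 180 and 394 CPM in KO tumors and 288, 210, 286, 137 and 255 CPM in NTC tumors. The fold was 1.17 (0.805 to 1.72). *Gbp5*, known for promoting the NLRP3 inflammasome, had 124, 169, 86.6, 60.45 and 213 CPM in KO tumors and 153, 83.03, 128, 57.3 and 132 CPM in NTC tumors. It varied most of all members, 3.72-fold from the lowest to the highest tumor, and its fold of 1.18 had an interval of 0.682 to 2.05. This was the only member whose interval did not exclude a doubling.

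*Gbp7*, which has been tied to the NADPH oxidase, had 481, 578, 484, 389 and 603 CPM in KO tumors and 623, 560, 730, 437 and 680 CPM in NTC tumors. Of the 5 NTC tumors 3 lay above every KO tumor, and the fold was 0.836 (0.653 to 1.07). *Gbp4*, on chromosome 5, had 770, 626, 612, 552 and 816 CPM in KO tumors and 809, 685, 814, 513 and 767 CPM in NTC tumors. It was the steadiest GBP, 1.59-fold from lowest to highest, with a fold of 0.941 (0.741 to 1.20).

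Among the regulatory IRGs, which keep effector IRGs inactive on the cell's own membranes, *Irgm1* had 274, 293, 279, 248 and 319 CPM in KO tumors. In NTC tumors it had 274, 371, 365, 254 and 396 CPM. NTC replicates 2, 3 and 5 were above every KO tumor, and NTC replicates 1 and 4 lay within the KO range. Its fold was 0.851 (0.691 to 1.05), and 0.796 (0.649 to 0.976) over 9 tumors. *Igtp* had 723, 702, 633, 512 and 818 CPM in KO tumors against 725, 809, 920, 559 and 1049 CPM in NTC tumors, a fold of 0.834 (0.634 to 1.10). *Irgm2* had 356, 326, 278, 242 and 340 CPM against 291, 315, 384, 247 and 469 CPM, and only NTC replicates 3 and 5 exceeded KO replicate 1. The *Irgm2* fold was 0.903 (0.688 to 1.19).

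Of the effector IRGs, *Iigp1* had 962, 959, 763, 729 and 1190 CPM in KO tumors and 1165, 997, 1164, 758 and 1127 CPM in NTC tumors. KO replicate 5 was its highest tumor, and the fold was 0.883 (0.685 to 1.14). *Tgtp2* had 22.96, 28.45, 23.65, 17.59 and 29.09 CPM in KO tumors and 30.44, 31.02, 32.94, 23.51 and 40.1 CPM in NTC tumors. Of the 5 NTC tumors 4 exceeded all KO tumors, and NTC replicate 4 lay among the KO values. Its log2 fold change was -0.38 ± 0.17 (SE), with an adjusted p = 0.556 by edgeR and the interval of the fold at 0.594 to 0.998. *Tgtp1*, its near copy and no member, had a log2 fold change of -0.35 (edgeR adjusted p = 0.556).

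**Figure D2:**
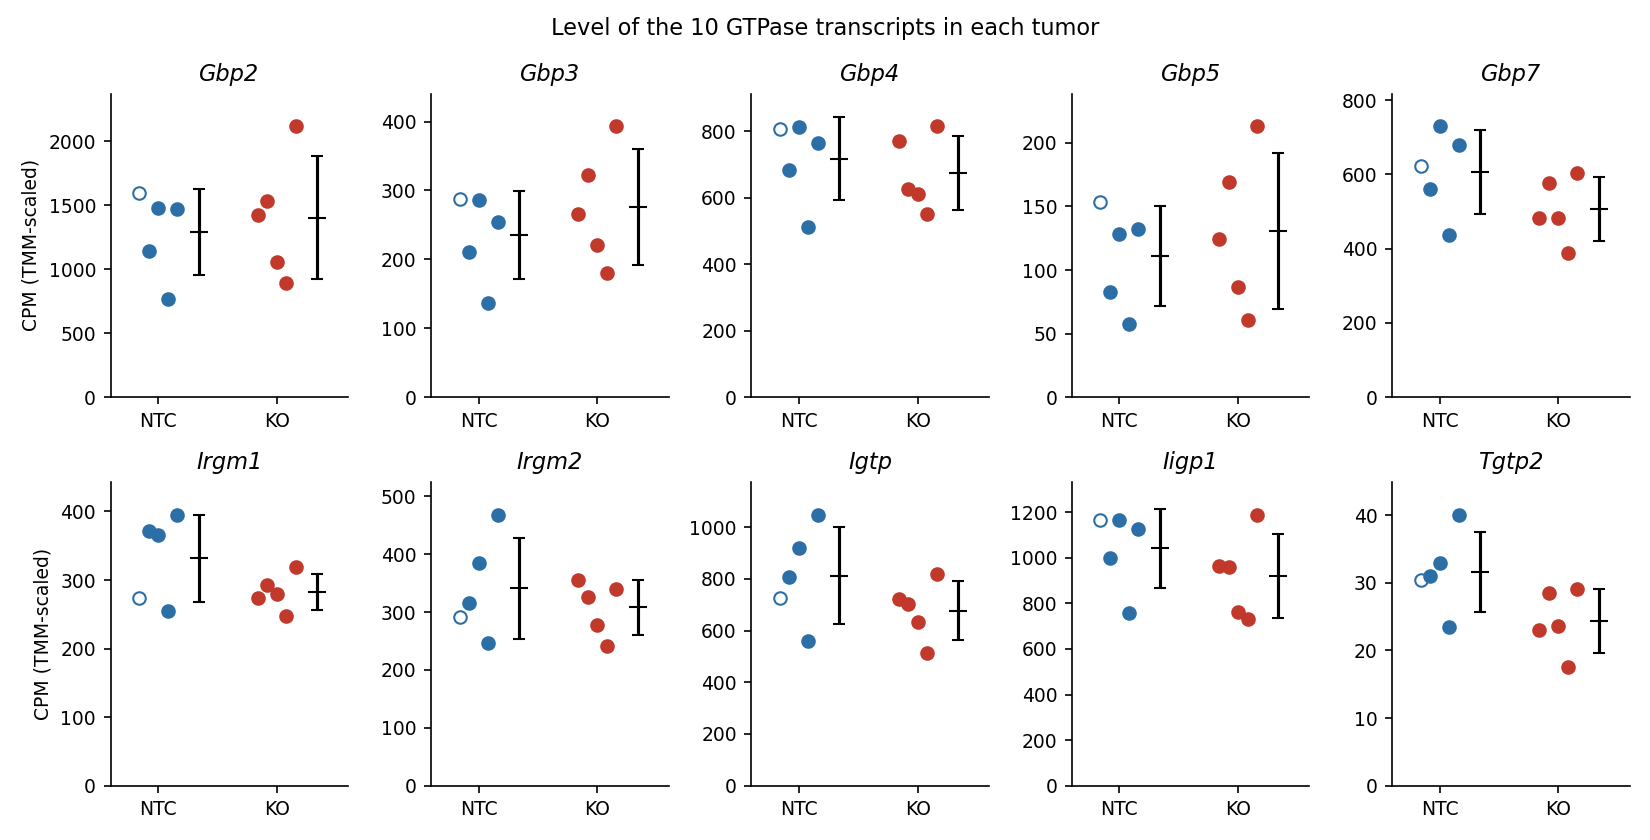
TMM-scaled CPM (linear axis from 0) of each member in every tumor, NTC in blue and KO in red, points in the order of replicates 1 to 5, NTC replicate 1 open. Bars give the mean ± SD of 5 tumors, and in all 10 panels the KO and NTC values overlap.

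By adjusted p under 0.05 and an absolute log2 fold change above 1, 0 of 10 members were called over 10 tumors, where 0.0190% of the 15821 genes tested were called. At an unadjusted p under 0.05, 0 members were higher in KO tumors (3.99% of all genes) and 1, *Tgtp2*, was lower (4.85%). DESeq2 called 0 members over 10 tumors, against 0.609% of the 15763 genes it tested. None of the 10 had KO and NTC ranges that did not overlap, which 1.85% of all genes had. Over the 9 tumors 0 members were called against 0.106% of 16078 genes. There 0 were higher at an unadjusted p under 0.05 (12.0% of genes), and 2, *Irgm1* and *Tgtp2*, were lower (8.10%), with adjusted p = 0.219 and 0.223 by edgeR. The median log2 fold change of the members was -0.16 over 10 tumors and -0.20 over 9, and that of all genes tested was 0.01 and -0.02. The count of 1 rested on single tumors. It was 0 without KO replicate 1 (4.38% of genes lower in that fit), 3 (4.33%) or 4 (5.86%) or NTC replicate 2 (3.91%), 3 (4.19%) or 5 (4.44%). It was 4 without NTC replicate 4, where 3.62% of genes were lower, with *Gbp7*, *Irgm1*, *Igtp* and *Tgtp2*.

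**Figure D3:**
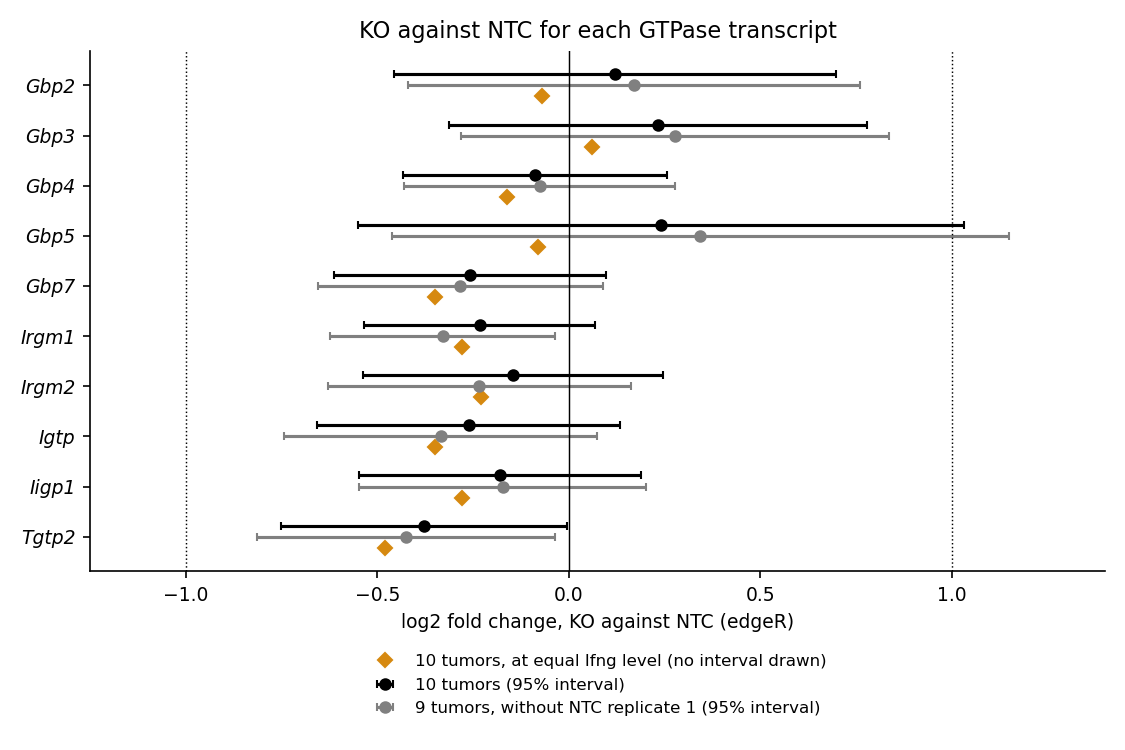
Log2 fold change, KO against NTC, of each member by edgeR over 10 tumors (black) and 9 tumors (grey), with 95% intervals, and at equal Ifng level (diamonds). Dotted lines mark the fold threshold, which no estimate reaches.

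From the lowest to the highest tumor the members varied 1.59- to 3.72-fold. KO replicate 5 was the highest tumor for 5 members, NTC replicate 5 for 4 and NTC replicate 3 for 1. KO replicate 4 was the lowest for 6 members and NTC replicate 4 for the other 4. The summed level of the 10 members ran from 3819 to 6842 CPM in KO tumors and from 3753 to 6382 CPM in NTC tumors. *Gbp2*, *Gbp3* and *Gbp5* went together most closely, with r = 0.972 for *Gbp2* and *Gbp3* and r = 0.976 for *Gbp2* and *Gbp5* across 10 tumors on the log2 scale. The 10 pairs of IRGs had r = 0.688 to 0.944, the highest for *Igtp* and *Irgm2*, which share exon bases. *Gbp7*, although encoded between *Gbp5* and *Gbp3*, went with *Tgtp2* (r = 0.932), *Igtp* (0.914) and *Iigp1* (0.900) more closely than with *Gbp2* (0.700), *Gbp5* (0.665) or *Gbp3* (0.642). All members of a tumor share 1 library and 1 scaling factor, and these values are a description.

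The level of *Ifng* itself was low and varied between tumors. It was 3.69, 5.01, 1.92, 1.01 and 8.36 CPM in KO replicates 1 to 5 and 3.37, 1.94, 3.75, 1.26 and 3.05 CPM in NTC replicates 1 to 5, from 25 to 188 reads per library. KO replicate 5 was highest and KO replicate 4 lowest, and the groups overlapped. Across the 10 tumors the trio of *Gbp2*, *Gbp3* and *Gbp5* followed it. *Gbp5* had Pearson's r = 0.977 (permutation p = 4e-05, adjusted 0.0006) and Spearman's rho = 0.915 (p = 0.00054, adjusted 0.0054). *Gbp2* had r = 0.964 (permutation p = 3e-05, adjusted 0.0006) and rho = 0.976 (p = 5e-05, adjusted 0.00075), and *Gbp3* had r = 0.948 and rho = 0.976 (adjusted permutation p = 0.0009 and 0.00075). Without the 2 tumors farthest from the median *Ifng* level, KO replicates 4 and 5, r was 0.966 for *Gbp5*, 0.937 for *Gbp2* and 0.950 for *Gbp3*. Within the 5 KO tumors r was 0.987 to 0.995 for this trio and within the 5 NTC tumors 0.965 to 0.975.

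Most IRGs had lower r with *Ifng*, a difference between members that was not tested. *Irgm1* had r = 0.314 and rho = 0.455 (adjusted permutation p = 0.447 and 0.229), *Tgtp2* r = 0.499, *Irgm2* r = 0.560 and *Igtp* r = 0.574, none of them past an adjusted p of 0.05. *Iigp1* (r = 0.785) and *Gbp4* (r = 0.760) passed it over 10 tumors, with 0.606 and 0.601 when the same 2 tumors were left out. In all, 5 of 10 members passed for *Ifng*, among 30 relations adjusted together, and 3 passed without KO replicate 4, without KO replicate 5 or without NTC replicate 4. Within KO tumors alone r with *Ifng* was 0.877 for *Irgm1* and 0.977 for *Igtp*, and within NTC tumors it was 0.358 and 0.641. These are 5 tumors each and the difference between r values was not tested.

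**Figure D4:**
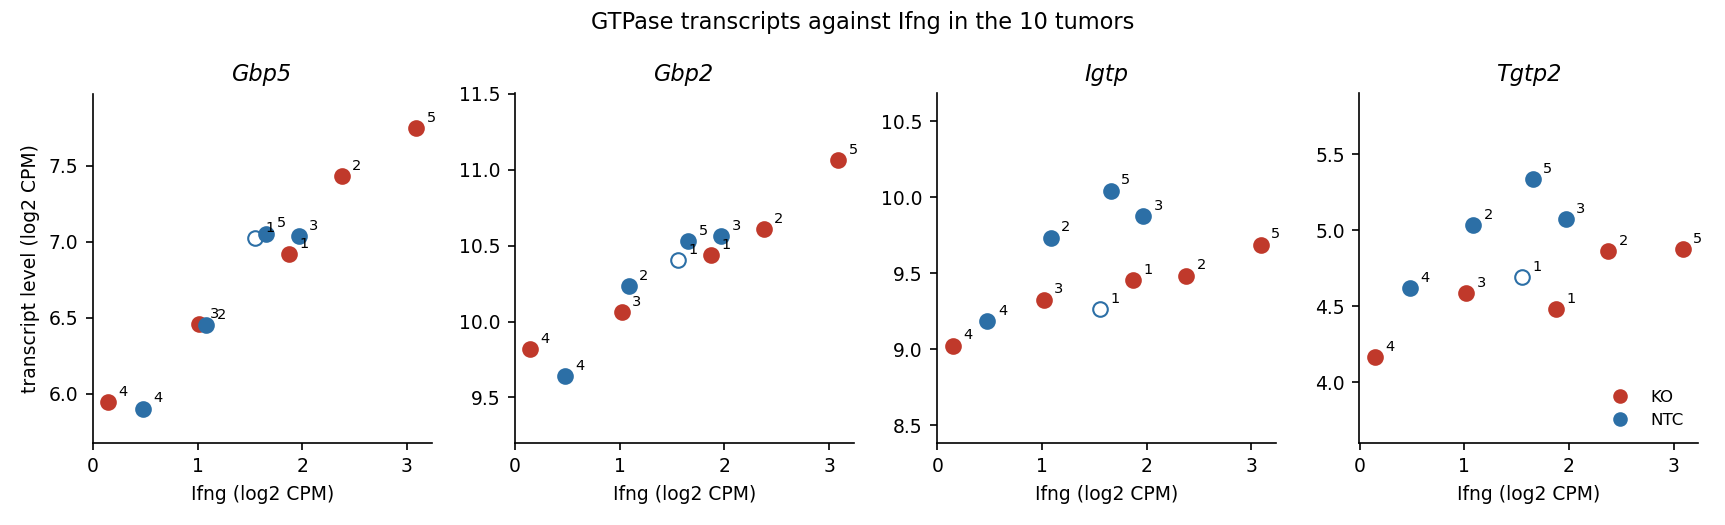
Level of 4 members against Ifng, both in log2 CPM, in the 10 tumors (KO red, NTC blue, NTC replicate 1 open, replicate numbers beside the points), each panel spanning the same number of log2 units. Gbp5 (r = 0.977) and Gbp2 (r = 0.964) lie along 1 line for both groups, while for Igtp and Tgtp2 NTC replicates 2, 3 and 5 lie above the KO tumors of nearby Ifng level.

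The amount of leukocyte RNA was correlated past the threshold with the trio and with none of the other 7 members. The leukocyte score, the mean log2 CPM of 10 pan-leukocyte genes such as *Ptprc* (CD45), was 5.68 to 7.94 in KO tumors and 4.60 to 7.30 in NTC tumors, with NTC replicate 1 at 7.30. It had r = 0.862 with *Gbp5*, 0.817 with *Gbp3* and 0.789 with *Gbp2* (rho = 0.891, 0.879 and 0.842, adjusted permutation p = 0.0116, 0.0158 and 0.0204 for r). For the IRGs r ran from -0.175 (*Irgm1*) to 0.421 (*Iigp1*). No member passed once the 2 farthest tumors, KO replicate 5 and NTC replicate 4, were left out, and the values for the trio were then 0.556 to 0.732. Without either of these 2 tumors alone, 1 member passed. The parts of *Ifng* and of leukocyte RNA in the member levels were not tested apart.

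**Figure D5:**
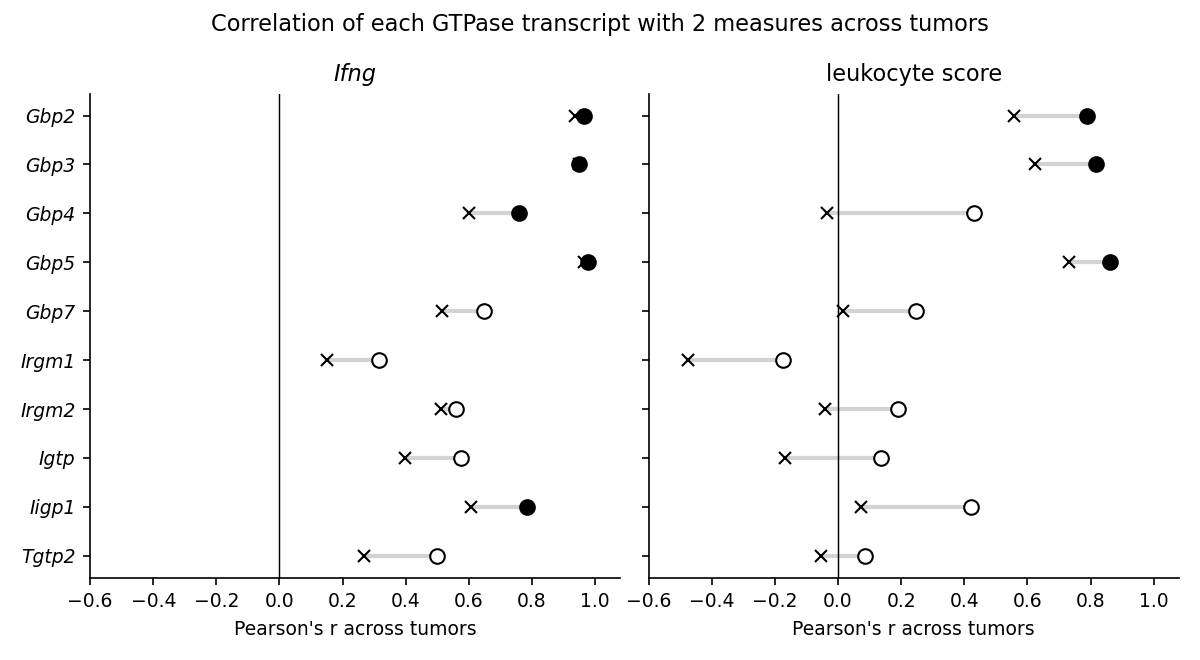
Pearson's r of each member with Ifng and the leukocyte score across 10 tumors (circles, filled where the adjusted permutation p is under 0.05) and without the 2 tumors farthest from the median of that measure (crosses). Gbp2, Gbp3 and Gbp5 keep r of 0.937 to 0.966 with Ifng, and Irgm1 has the lowest r with Ifng and with the leukocyte score.

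Because the tumors differed so much in *Ifng*, KO and NTC tumors were also compared at equal *Ifng* level, with log2 *Ifng* as a covariate in edgeR, a fit chosen after these levels had been seen. The trio then lay near 0, with log2 fold changes of -0.07 ± 0.12 (SE) for *Gbp2*, 0.06 ± 0.11 for *Gbp3* and -0.08 ± 0.13 for *Gbp5*. In this fit 5 members were lower in KO tumors at an unadjusted p under 0.05, which 5.68% of all genes were, and 0 were higher (4.13%). They were *Tgtp2* (-0.48 ± 0.11), *Igtp* (-0.35 ± 0.12), *Gbp7* (-0.35 ± 0.09), *Iigp1* (-0.28 ± 0.09) and *Irgm1* (-0.28 ± 0.12), with edgeR adjusted p from 0.138 for *Tgtp2* to 0.469 for *Irgm1*. None reached the fold threshold, and none passed at an adjusted p under 0.05 over 10 tumors. Over 9 tumors 6 members were lower at the unadjusted p (9.81% of genes), *Irgm2* being the sixth. The edgeR adjusted p was then 0.0251 for *Tgtp2* and 0.0482 for *Gbp7*, neither past the fold threshold. In that fit 3.05% of 16078 genes passed adjusted p and fold together, so at least that share passed adjusted p alone. Leaving out each tumor in turn gave 4 to 6 members, against 3.53 to 9.81% of genes. *Gbp7*, *Igtp* and *Tgtp2* were lower at an unadjusted p under 0.05 in each of 14 other settings of this fit, *Iigp1* in 13 and *Irgm1* in 6. These settings are refits of the same tumors and not independent. In 10 of them 1 tumor was left out, the 9-tumor fit above among them, and the rest changed the processing.

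The same comparison was made at equal leukocyte score. *Gbp5* (-0.40 ± 0.16), *Gbp7* (-0.46 ± 0.13), *Igtp* (-0.44 ± 0.17), *Iigp1* (-0.41 ± 0.12) and *Tgtp2* (-0.58 ± 0.15) were lower at an unadjusted p under 0.05 (6.50% of genes), with edgeR adjusted p of 0.133 or more. Over 9 tumors, a fit added after the data had been seen, 8 members were lower (4.14% of genes), all but *Gbp3* and *Gbp4*, and the lowest edgeR adjusted p was 0.0996, for *Tgtp2*. *Ifng* and the leukocyte score are measured in the same libraries and their means differ between the groups, so such a fit does not separate the knockout from them.

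The pathway above the GTPases showed no call by edgeR without a covariate over 10 or 9 tumors. Of 8 genes for the ligand, receptor and transducers, 0 of 8 tested were called and 0 had an unadjusted p under 0.05 over 10 tumors. *Ifng* had a log2 fold change of 0.58 (95% interval -0.58 to 1.75) and *Irf1* of -0.04 (-0.41 to 0.32). The receptor chain *Ifngr1* stood at 0.75 and the kinase *Jak2* at 0.46. Over 9 tumors these 2 of the 8 genes were higher at an unadjusted p under 0.05, which 12.0% of all genes were (3.99% over 10 tumors). The 2 genes then stood at 1.13 and 0.59 (edgeR adjusted p = 0.192 and 0.176). Negative regulators such as *Socs1* (0.18) and *Ptpn2* (-0.05) had 0 of 6 past either threshold and a median of 0.09, while over 9 tumors 2 (*Ptpn1* at 0.55 and *Pias1* at 0.34) were higher at an unadjusted p under 0.05. Among inducers of IFN-γ, 7 of 8 genes passed the filter, all 7 had log2 fold changes above 0 with a median of 0.98, and 1, the interleukin-12 subunit *Il12b*, had an unadjusted p under 0.05 (log2 fold change 2.19, edgeR adjusted p = 0.367). Over 9 tumors the inducers had a median of 1.42 and 2 genes past the unadjusted threshold. *Il12b* stood at 0.613 to 3.87 CPM in KO tumors and at 0.126 to 1.01 CPM in NTC tumors.

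Relatives of the members were not called by edgeR without a covariate over 10 or 9 tumors. *Gm5431*, of the other IRG genes, was called higher by DESeq2 without a filter over 9 tumors and by edgeR at equal *Ifng* level over 9 tumors. The 6 other GBPs had 0 calls and a median log2 fold change of -0.04. *Gbp2b*, the neighbor of *Gbp2* whose coding sequence is 82.5% identical to it, was the one farthest from 0. It had 54.08, 251, 50.36, 24.37 and 147 CPM in KO tumors and 72.47, 9.85, 45.15, 8.78 and 58.35 CPM in NTC tumors, with overlapping ranges and a log2 fold change of 1.45 (edgeR adjusted p = 0.625). Over 9 tumors it was at 1.74 and past the unadjusted threshold (edgeR adjusted p = 0.246), the only one of the 6. Of all genes 12.0% were higher and 8.10% lower at that threshold over 9 tumors, against 3.99% and 4.85% over 10 tumors. Of the 11 other IRG genes 10 passed the filter, 0 were called, and the 2 with an unadjusted p under 0.05 were both lower, *Tgtp1* and *Gm4841* (log2 fold change -0.54, edgeR adjusted p = 0.505). Over 9 tumors *Tgtp1* (-0.42) and *Gm4841* (-0.54) were again lower at an unadjusted p under 0.05 (edgeR adjusted p = 0.212 and 0.229). There *Gm5431* was higher at that threshold, at 1.92 against 1.27 over 10 tumors (edgeR adjusted p = 0.19 and 0.645), and the median of the 10 genes was -0.15. The interferon-inducible very large GTPase *Gvin1* had a log2 fold change of 0.51 (edgeR adjusted p = 0.82), and of 0.87 over 9 tumors (0.387).

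Other IFN-γ targets, 15 genes that include the chemokines *Cxcl9* (0.16) and *Cxcl10* (-0.39), the checkpoint ligand *Cd274* (0.51) and the class II transactivator *Ciita* (0.32), had 0 calls over 10 tumors, 13 values above 0 and a median log2 fold change of 0.14. Over 9 tumors 10 of the 15 were above 0 with a median of 0.26, and 2 were higher at an unadjusted p under 0.05 (12.0% of all genes). They were *Cd274* at 0.97 and the nitric oxide synthase *Nos2* at 1.58 against 0.83 over 10 tumors (edgeR adjusted p = 0.197 and 0.167). Type I interferon targets lay mostly on the other side. Of 12 genes 11 had values below 0, the median was -0.35, and *Mx2* (-0.84) and *Isg15* (-0.62) were lower at an unadjusted p under 0.05, with edgeR adjusted p = 0.361 and 0.493. Over 9 tumors the median was -0.30, with 2 lower at the unadjusted threshold. Of all genes 4.85% were lower at that threshold over 10 tumors and 8.10% over 9. Among 13 partners of the GTPases, autophagy proteins that load them onto membranes and inflammasome proteins that act after them, 0 were called over 10 tumors, with a median of 0.05. Over 9 tumors the median was 0.21 and 3 were higher at an unadjusted p under 0.05, *Atg5* (0.34) and the inflammasome sensors *Aim2* (1.70) and *Nlrp3* (1.77), which stood at 0.20, 0.79 and 0.78 over 10 tumors. *Casp4*, the mouse receptor for cytosolic lipopolysaccharide, was at -0.10 over 10 tumors and at 0.23 over 9, and *Gsdmd*, the pore-forming protein it cleaves, at 0.39 and 0.60.

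Markers of most host cells had fitted log2 fold changes above 0, with no call by edgeR without a covariate over 10 or 9 tumors. All 10 pan-leukocyte genes had log2 fold changes above 0 over 10 tumors (median 0.81), and so had 8 of 8 T cell genes (1.14), 5 of 6 NK cell genes (0.73) and 8 of 8 macrophage genes (0.97), with 0 called in each list. Neutrophil genes had a median of -0.59, endothelial genes of 0.18 and fibroblast genes of 0.28. Over 9 tumors the pan-leukocyte median was 1.50 and the macrophage median 1.68, with 8 of 10 and 8 of 8 genes higher at an unadjusted p under 0.05, and the neutrophil median was 1.82. Of all genes 12.0% were higher and 8.10% lower at that threshold over 9 tumors. The fibroblast median was then 1.57 with 3 of 7 genes higher at the unadjusted threshold, and the endothelial median 0.58 with 1 of 6. The T cell median was 1.45 with 5 of 8, and the NK cell median 0.97 with 1 of 6. The summed level of the 10 pan-leukocyte genes ran from 674 to 3289 CPM in KO tumors and from 343 to 1058 CPM in NTC replicates 2 to 5, with 2584 CPM in NTC replicate 1. The 9 melanoma genes, *Tyr* and *Pmel* among them, summed to 15213 to 24432 CPM in KO tumors and 23740 to 26179 CPM in NTC replicates 2 to 5, with 14058 CPM in NTC replicate 1. Of these 9 genes 8 had log2 fold changes below 0 over 10 tumors (median -0.11), and over 9 tumors all 9 had (median -0.26), 2 of them at an unadjusted p under 0.05. Skeletal muscle genes summed to 2.18 to 212 CPM in KO tumors and 1.22 to 5.93 CPM in NTC tumors, and keratinocyte genes to 4.14 to 38.0 and 3.64 to 4.71 CPM, with KO replicate 4 highest for muscle and KO replicate 3 for keratinocyte genes. By DESeq2 without a filter over 9 tumors, which called 4.05% of genes, 28 genes of the pathway and marker lists were called, all of them higher. They were 7 of 8 skeletal muscle, 5 of 10 pan-leukocyte, 5 of 8 macrophage and 3 of 6 neutrophil genes, 1 T cell, 1 fibroblast and 1 keratinocyte gene, and *Gm5431*, *Nos2*, *Aim2*, *Nlrp3* and *Il12b*. At equal *Ifng* level over 9 tumors, where edgeR called 3.05% of genes, 24 were called, 7 of 8 macrophage, 5 of 10 pan-leukocyte, 4 skeletal muscle and 3 neutrophil genes with *Gm5431*, *Nos2*, *Aim2* and *Nlrp3* higher and *Mx2* lower. The part of these markers in the member levels was not tested beyond the leukocyte score.

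The genes most like the members were found by correlation with the mean of the members' standardised log2 CPM over the 10 tumors, among 15811 other genes. In order they were *Gm12250* (r = 0.973), *Dhx58* (0.962), *Gabarapl1* (0.942), *Gbp6* (0.935), *Hsh2d* and *Ube2l6* (0.929 each), *Gm5532* (0.926), *Gm4951* (0.923), *Lmo4* (0.921) and *Gpr108* (0.916). *Gm12250* is an IRG known as Irgb10, listed as a pseudogene in GENCODE M21, *Dhx58* an RNA sensor, *Gabarapl1* an autophagy protein of the ATG8 family and *Ube2l6* the conjugating enzyme for *Isg15*. *Irf1* ranked 19 (r = 0.892), *Tgtp1* ranked 25 (0.873) and *Ifng* ranked 98 (0.805). *Ptprc*, by contrast, ranked 1970 (0.460).

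No member had a seed match for miR-25, the miRNA targeted in the KO cells. The mature miR-25-3p of RefSeq is printed because its seed, bases 2 to 8 in capitals, defines the letters searched.
mmu-miR-25-3p, chr5:138165332-138165353, minus strand: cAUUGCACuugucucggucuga
The complementary site GTGCAAT was absent from the longest annotated 3′ UTR of all 10 members (518 to 3578 bases, GENCODE M21), while 6.57% of 21005 protein-coding genes had it. This covers these letters in these transcripts only.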

How the data were processed

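Whole-tumor RNA was sequenced, and the authors deposited 1 file of whole-number read counts per gene for each of 10 tumors, not normalized. The submitters' processing notes name FastQC, Trimmomatic, HISAT2, HTSeq and mm10. The notes give no versions, and the study's reporting summary lists versions of FastQC, Trimmomatic and HISAT2 but not of HTSeq. The strand setting and the gene annotation are not given in the sources used here, and GENCODE M21 may not be the annotation used for counting. Summary rows (no feature, ambiguous, not unique; 35.29 to 64.09% of reads) stayed out of library sizes and tests.

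Counts of the 5 KO and 5 NTC tumors were fitted together with edgeR 4.0.16 in R 4.3.3 (TMM factors, filterByExpr, quasi-likelihood test, Benjamini-Hochberg adjustment over all genes tested). A call needed an adjusted p under 0.05 and an absolute log2 fold change above 1. Log2 CPM used a prior count of 2. DESeq2 1.42.0, other filters and scalings, leaving out each tumor, the replicate number as a block and covariates were alternatives, and the fits at equal Ifng level, the fit at equal leukocyte score over 9 tumors and the shares by unshared exon bases were added after the data had been seen. Correlations used two-sided permutation tests with 100000 resamples (scipy 1.17.1), adjusted over 30 relations, 10 of which are not reported here. The members, the gene lists and the tests were chosen with earlier results of these data known. All 10 members are named, genes of the other lists may be named with their values, and likeness names the 10 genes with the highest r. On simulated counts for 15650 genes of this comparison, edgeR's adjusted p alone was used, without the fold threshold of a call. At an adjusted p under 0.05, 45 of 96 genes changed 2-fold and 78 of 94 changed 4-fold were found in the right direction. Of the unchanged genes 7 passed. Lengths are the union of annotated exons. Promoters and the miRNA are RefSeq sequences.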

Additional observations from a re-analysis of the deposited data

How the results depend on the processing

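No member was called under any alternative by adjusted p and fold, and the adjusted p of members ran from 0.0251 to 1. The count of members lower at an unadjusted p under 0.05, 1 over 10 tumors, was 0 without a filter, 0 with at least 10 counts in every tumor, 0 by DESeq2 without a filter over 9 tumors, 5 at equal leukocyte score, 8 at equal leukocyte score over 9 tumors, 5 at equal Ifng level and 6 at equal Ifng level over 9 tumors, and it ran from 0 to 4 when each tumor was left out in turn. In these fits 3.57 to 9.81% of all genes were lower at that threshold. At equal Ifng level the count was 3 without a filter (8.70% of genes) and 4 to 6 with a tumor left out. The median log2 fold change of the members, -0.16, was -0.53 at equal leukocyte score over 9 tumors and ran from -0.26 to -0.09 with a tumor left out. Of the pathway and marker genes, none called in the fit of 10 tumors, 28 were called by DESeq2 without a filter over 9 tumors (4.05% of all genes), 24 at equal Ifng level over 9 tumors (3.05%), mostly leukocyte, macrophage, neutrophil and muscle markers, and 1 at equal leukocyte score over 9 tumors. The causes were not tested.

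Signs changed for 3 members. Gbp2 was at -0.29 at equal leukocyte score, -0.43 in that fit over 9 tumors, -0.07 at equal Ifng level and -0.03 in that fit over 9 tumors, and ran from -0.07 to 0.25 with a tumor left out, being -0.02 without NTC replicate 4. Gbp3 was at -0.15 and -0.28 at equal leukocyte score over 10 and 9 tumors. Gbp5 was at -0.40 and -0.59 in those fits and at -0.08 at equal Ifng level, and ran from -0.00 to 0.42 with a tumor left out. The other 111 of 120 member values outside these left-out fits kept their sign and side of the threshold.

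The number of members correlated with Ifng was 3 without the 2 farthest tumors and 3 to 6 with 1 left out. For the leukocyte score it was 0 and 1 to 3. With the longest transcript as length the mean share moved by more than its SD between tumors for 7 members, Gbp2 to 29.7%, Gbp4 to 8.72%, Gbp5 to 1.75%, Gbp7 to 5.61%, Irgm1 to 4.59%, Igtp to 20.8% and Iigp1 to 17.8%.

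Over all genes, 1 higher and 2 lower were called by edgeR over 10 tumors, against 24 and 72 by DESeq2, 2 and 15 over 9 tumors, 618 and 136 by DESeq2 without a filter over 9 tumors, and 390 and 100 at equal Ifng level over 9 tumors. The methods name no pairing of tumors by replicate number. The correlations of same-numbered deviations were 0.176, -0.285, 0.077, 0.633 and 0.209, which does not settle whether the numbers pair tumors. With the replicate block 0 members and, over all genes, 1 higher and 0 lower were called. With that block the edgeR unadjusted p was 0.00529 for Tgtp2 (adjusted 0.29) and 0.0535 for Igtp, against 0.0483 and 0.173 without it. Depth limits the Ifng level, which rests on 25 to 188 reads per library.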
